A study of Mus musculus with 12 samples.

Results

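Enteroendocrine cells, the hormone-secreting cells of the gut epithelium, were examined in small intestinal organoids of wild-type BALB/c mice. A cell was counted as enteroendocrine when Chga and Chgb, which encode the chromogranins packed into hormone granules, together reached 10 UMIs (unique molecules counted) per 10000 gene UMIs of that cell. This rule took 199 of 11911 kept cells (1.67%) and left 11712 other epithelial cells. The lowest values inside the limit were 10.1, 10.5 and 10.6 per 10000, and the highest outside it were 9.62, 8.71 and 8.55. Of the other cells, 10867 (92.8%) had neither transcript, and limits of 5 or 20 per 10000 would have taken 213 or 169 cells.

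Passaged organoids had been cultured for 4 days in 6 groups, each marked with its own hashtag antibody and pooled before single-cell capture. Control organoids (Ctrl) received no T cells, blocking antibody or recombinant cytokine. The Treg group shared its wells with 100000 allogeneic regulatory T cells, given with IL-2 at 30 U/mL and 2 µL of CD3/CD28 activator beads per well, on plates tilted so that T cells and organoids did not touch. The Treg + aIFNg, Treg + aIL10R and Treg + aIFNg + aIL10R groups received blocking antibodies to interferon γ (IFNγ), to the IL-10 receptor or to both, at 10 µg/mL. The IFNg + IL10 group received no T cells but recombinant IFNγ at 0.25 ng/mL and IL-10 at 10 ng/mL. All groups were sorted as live EpCAM+ cells, so the T cells were removed before capture. Of 6 deposited libraries 5 were used: replicates 1 and 2 each had 2 libraries and replicate 3 had 1, with 128917456 to 223155304 gene UMIs per library. Each organoid culture replicate contributed to all groups, and 32 kept cells, none of them a pair of enteroendocrine cells, carried a barcode seen in another library.

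Enteroendocrine cells arise from crypt progenitors that switch on Neurog3 and then Neurod1, and they differentiate into overlapping subtypes named for their hormones. Enterochromaffin cells make serotonin through Tph1 and often co-express Tac1, while other cells release peptides such as cholecystokinin, secretin, ghrelin, GIP and GLP-1 into the circulation in response to nutrients. IFNγ raises antigen presentation genes, in part through the transcription factor IRF1, and epithelial cells are among its targets.

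The cells carried the enteroendocrine programme that the rule did not ask for. Neurod1 was detected in 98.5% of them and in 0.649% of the other cells, and Insm1, Nkx2-2 and Rfx6, further transcription factors of the lineage, in 97.5%, 95% and 89.9%. The prohormone convertase Pcsk1, the carboxypeptidase Cpe and the granule membrane protein Ptprn2 were detected in 95%, 97.5% and 100% of enteroendocrine cells. Ranked by the ratio of mean levels among genes with a mean of at least 1 per 10000 in enteroendocrine cells, the leading genes were Kcnj3, Chgb, Gcg, Gip, Tac1, Cck, Adgrg4, Sphkap, Scg2, Lmx1a, Etv1, Pyy and Tph1, followed by Resp18, Pax6, Rbp4 and Sst. Fev, a transcription factor of serotonin-producing cells, closed this list of 25 genes with detection in 89.4% against 0.282%. These contrasts follow from the selection of the cells and were not tested.

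Defining markers of other cell types were scarce or shared. All 10 T cell genes together gave 6 UMIs over 199 cells, with Ptprc, Cd3e, Cd3d, Cd3g, Cd4, Il2ra and Ifng at 0, and the 7 tuft cell genes gave 34 UMIs, with Trpm5, Gfi1b and Il25 at 0. Muc2, the goblet cell mucin, had a mean level of 0.054 per 10000 against 0.371 in the other cells, whereas Tff3, a trefoil peptide usually assigned to goblet cells, stood at 22.5 against 7.88 and Fcgbp, a mucus protein gene, at 3.88 against 2.34. These were the 2 of 8 goblet cell genes that were higher, and the 8 summed to 38.4 against 29.4. The 8 Paneth cell genes summed to 10.6 against 27.2 and were higher in enteroendocrine cells for 1: the defensin Defa24 had 7.51 against 22, Lyz1 2.17 against 2.19 and Ang4 0.237 against 0.0413. The 10 enterocyte genes summed to 20.6 against 49.2 and were higher for 2, with the disaccharidase Sis at 9.86 against 4.40 and the fatty acid binding protein gene Fabp1 at 2.65 against 26.2. The stem cell gene Lgr5 had 0.062 against 0.592. Enteroendocrine cells were shallower than the rest, with a median of 19864 UMIs (10047 to 80239) against 44518.5, and mitochondrial transcripts made up a median of 1.76% against 3.98% of their UMIs.

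Secretin was the most widespread hormone transcript. At 10 per 10000 or more, Sct was found in 99 cells (49.7%), and Cck (cholecystokinin), Ghrl (ghrelin) and Tac1 (the substance P precursor) each in 65 cells (32.7%). Pyy (peptide YY) reached that level in 27 cells (13.6%), Gip in 26 (13.1%), Gcg (the GLP-1 precursor) in 21 (10.6%) and Sst (somatostatin) in 5 (2.51%). Nts (neurotensin) and Insl5, hormones of more distal gut segments, reached it in none of the cells (0 of 199, a count compatible with at most 1.51%). Where a hormone passed the limit its level differed widely, with medians of 610 per 10000 for Gip, 399 for Sst, 379 for Cck, 132 for Ghrl, 57.3 for Gcg, 56.4 for Tac1, 42.4 for Sct and 35.0 for Pyy. Few cells outside the enteroendocrine set passed the same limit for any hormone, namely 32 of 11712 (0.273%), and 23 of these were positive for Sct, 8 for Ghrl and 2 for Cck. Single hormone UMIs were commoner there: Cck was detected in 7.18% and Ghrl in 7.74% of the other cells at their greater depth, so that detection alone was read as background.

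**Figure D1:**
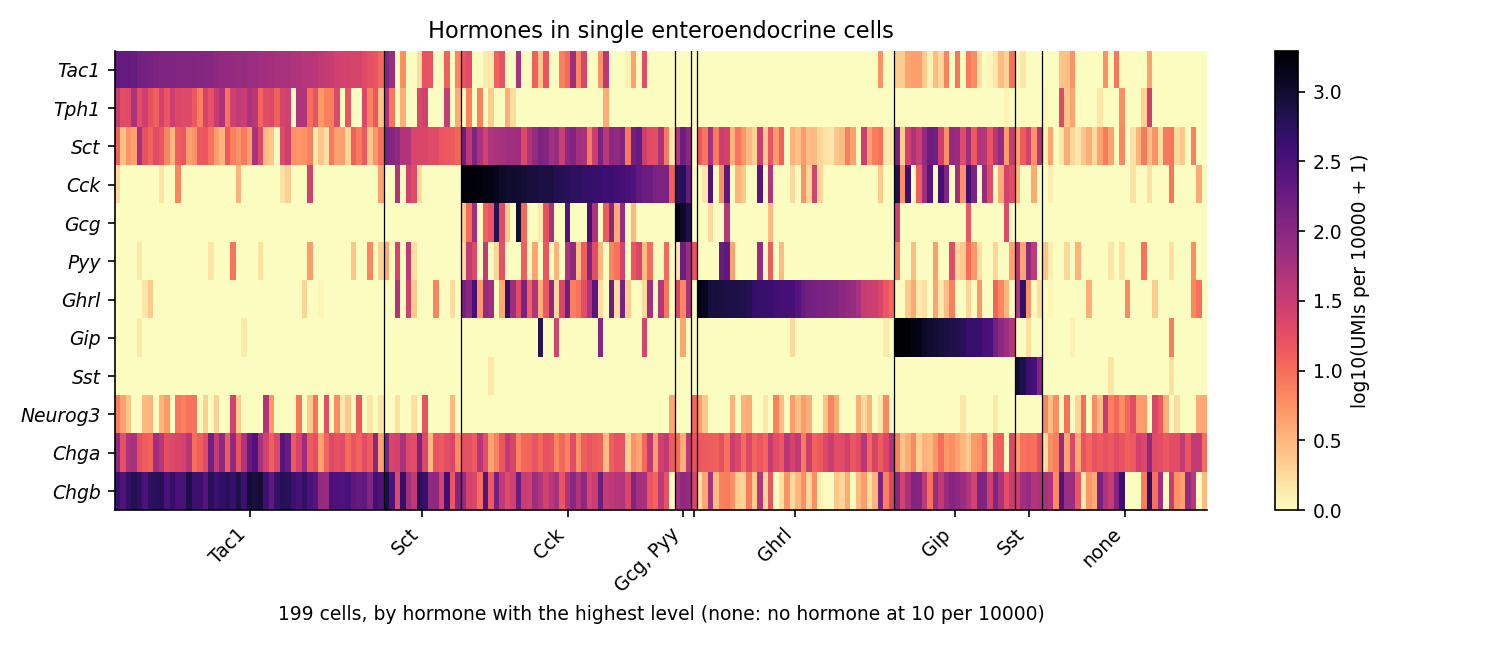
Hormone levels in UMIs per 10000 gene UMIs (colour, log scale) in each of the 199 enteroendocrine cells, ordered by their most abundant hormone. Of the 49 Tac1-led cells 37 are positive for Tph1, the 39 Cck-led cells overlap with Sct, Ghrl, Gcg and Pyy, and the 36 Ghrl-led cells carry little Chgb.

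The cells fell into overlapping hormone classes rather than one hormone per cell. Assigned to their most abundant hormone, 49 cells (24.6%) were led by Tac1, 39 by Cck, 36 by Ghrl, 22 by Gip, 14 by Sct, 5 by Sst, 3 by Gcg and 1 by Pyy, and 30 (15.1%) reached the limit for none. Counting hormones in each cell, 69 cells held 1, 40 held 2, 29 held 3, 19 held 4, 11 held 5 and 1 held 6. Hence 100 cells (50.3%) were positive for at least 2. Of the 199 cells, 48 (24.1%) had a high doublet score in Scrublet, against 2.72% of the other cells. Hormones per cell were not counted without them, so the part of doublets in these combinations was not tested.

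Tac1-led cells mostly carried Tph1, as enterochromaffin cells do. Of the 49, 37 were positive for Tph1, the rate-limiting enzyme of serotonin synthesis. Sct was positive in 17 of them, Cck in 1, and none was positive for Ghrl, Gip, Gcg, Pyy or Sst.

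Cck-led cells often carried further hormones. Of 39 such cells 35 were also positive for Sct, 22 for Ghrl, 14 for Gcg and 14 for Pyy. Every one of the 21 Gcg-positive cells was Cck-positive, which is 32.3% of the 65 Cck-positive cells, and 11 of the 21 were also positive for Pyy. Gip-led cells showed another combination, with 19 of 22 positive for Sct and 14 for Cck but 1 for Ghrl. Gip and Ghrl coincided in 1 cell, which is 3.85% of the Gip-positive and 1.54% of the Ghrl-positive cells.

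The chromogranins, whose sum chose the cells, were divided unequally over the classes. Of 36 Ghrl-led cells 32 were positive for Chga and 5 for Chgb, and of 22 Gip-led cells 3 were positive for Chga and 21 for Chgb. The 30 cells without a leading hormone included 22 with detectable Neurog3, the transient progenitor factor, which was also detected in 27 of 49 Tac1-led and 20 of 36 Ghrl-led cells and in 77 of all 199. In the other cells, at their greater depth, it was detected in 1.10%. At 10 per 10000 or more it was found in 5 of the 30 and in 11 of the whole set. The classes were defined on the hormones themselves and are a description.

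Hormone makeup was not shown to depend on the treatment. Pooled over replicates, Tac1-positive cells were 45.8% of Ctrl, 42.4% of Treg, 40.7% of Treg + aIFNg, 42.3% of Treg + aIFNg + aIL10R, 24.6% of IFNg + IL10 and 10.7% of Treg + aIL10R cells. In the Treg + aIL10R group the shares in the 3 replicates were 0, 7.69 and 28.6%, against 40.0, 44.4 and 60.0% in Ctrl. Those of IFNg + IL10 were 20.7, 34.6 and 0%. Neither group overlapped with Ctrl for Tac1, while the remaining groups ranged from 0 to 66.7%. This was not particular to Tac1. In Treg + aIL10R, Ghrl (higher) and Sct (lower) did not overlap with Ctrl either, nor did Gip (higher) in Treg + aIFNg + aIL10R. Tph1 followed Tac1, with 2 of 28 cells positive in Treg + aIL10R, 7 of 61 in IFNg + IL10 and 9 of 24 in Ctrl. Ghrl-positive cells were 14 of 28 in Treg + aIL10R, 24 of 61 in IFNg + IL10 and 5 of 24 in Ctrl. In the exact permutation test of the 6 groups within replicates (two-sided, 8 hormones), the smallest p was 0.0560 for Gip (adjusted p 0.448), and Tac1 and Ghrl had p of 0.275 and 0.296 (adjusted p 0.592 for both). Each group and replicate held 5 to 29 cells.

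Before the groups are compared further, the hashtag signal of these cells has to be described, because it assigns them to groups. The hashtag antibodies bind CD45 and MHC class I, and epithelial cells lack CD45. Among barcodes that passed the RNA limits, 310 met the chromogranin rule, of which 73 (23.5%, Wilson 95% interval 19.2 to 28.6%) were called hashtag-negative and 38 doublet. Among the 13792 barcodes below the limit, 763 (5.53%, 5.16 to 5.93%) were negative. In called enteroendocrine cells the median count of the assigned hashtag was 581 UMIs in the IFNg + IL10 group, 86 in Treg, 78.5 in Treg + aIL10R, 42 in Treg + aIFNg, 36 in Ctrl and 19 in Treg + aIFNg + aIL10R. It made up a median of 94.3, 61.5, 54.9, 40.4, 42.5 and 30.0% of the hashtag UMIs in the same order. In barcodes under 2000 gene UMIs the IFNg + IL10 hashtag made up 29.0 to 86.5% of hashtag UMIs per library and that of Treg 4.49 to 30.5%, and by this share IFNg + IL10 led in 4 of 5 libraries and Treg in 1 of replicate 2. The part of these differences in hashtag signal in the group differences below was not tested beyond the values given beside them.

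Enteroendocrine cells had the largest mean share in the IFNg + IL10 group, but the tests did not separate this from the spread between replicates. In the 3 replicates they were 5.10, 2.87 and 1.80% of its kept cells (3.26% ± 1.68, SD, n = 3), against 1.68, 1.08 and 1.45% in Ctrl (1.40% ± 0.30). The 4 Treg groups had means of 1.25 to 1.54%. In replicate 1 the IFNg + IL10 value was far above all others, in replicate 2 it was the highest, and in replicate 3 it lay below Treg + aIFNg (2.08%) and Treg + aIL10R (1.96%).

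The difference between IFNg + IL10 and Ctrl was 1.85 percentage points (SD 1.53, higher in 3 of 3 replicates). The exact sign-flip test gave p = 0.25, the smallest 3 pairs allow (adjusted p 1 over 8 comparisons), and the exact permutation test over all 6 groups p = 0.0900 (0.0229 without cells of high Scrublet doublet score, 0.0434 with no replicate block, and 0.154 to 0.544 with a replicate left out). Without replicate 1 the difference was 1.07 percentage points, and it was 1.89 without replicate 2 and 2.60 without replicate 3. Within single libraries the IFNg + IL10 share was 4.94, 5.31, 3.58, 2.45 and 1.80%, above Ctrl in each of the 5. If all hashtag-negative cells came from the other 5 groups, those groups would hold 1.60, 2.03 and 2.28% in replicates 1 to 3, so that the order of replicate 3 would turn.

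**Figure D2:**
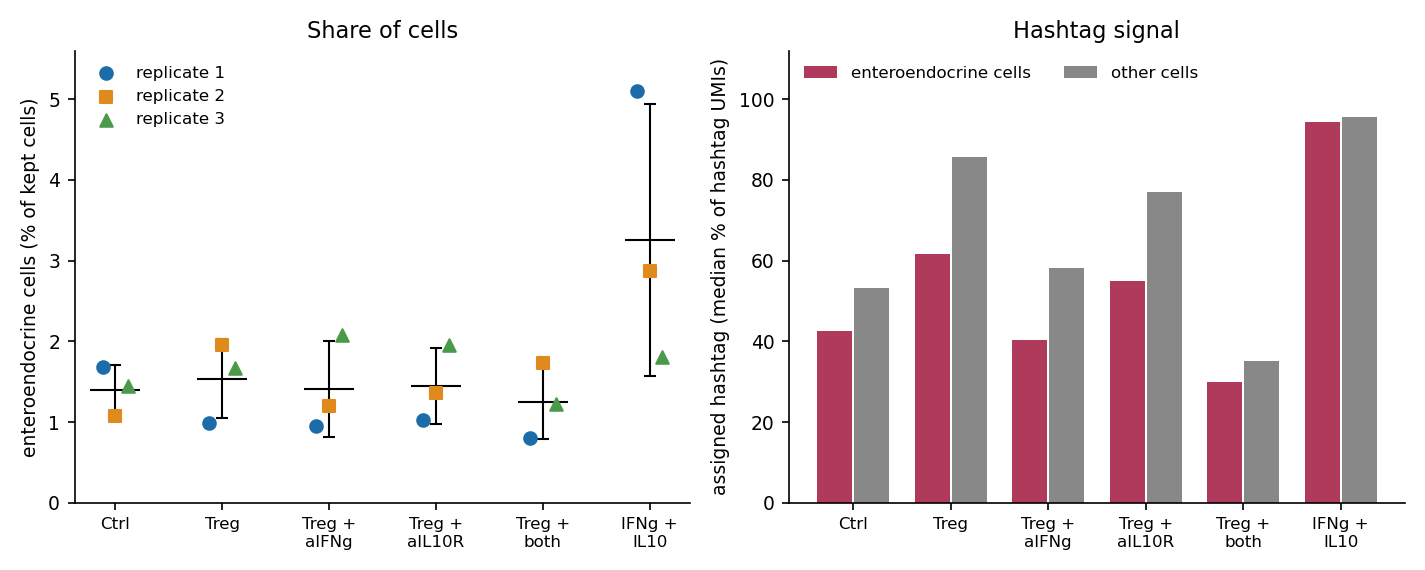
Enteroendocrine cells as a percentage of the kept cells in each hashtag group, 1 point per replicate with the mean (dash) and SD (whiskers), and, on the right, the assigned hashtag as a median percentage of a cell's hashtag UMIs in enteroendocrine and other cells (Treg + both: both antibodies). The IFNg + IL10 points lie at 5.10, 2.87 and 1.80%, those of the other groups between 0.804 and 2.08%, and the hashtag of IFNg + IL10 is the purest at 94.3%.

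Antigen presentation genes rose in enteroendocrine cells of the IFNg + IL10 group. Summed UMI counts per group and replicate were compared with edgeR, and of 5028 genes tested 8 rose (0.159%) and 1 fell (0.0199%) against Ctrl at a Benjamini-Hochberg adjusted p under 0.05. All 8 belong to MHC class II presentation (Cd74, H2-Aa, H2-Ab1), to MHC class I molecules (B2m, H2-D1, H2-K1) or to the immunoproteasome that generates their peptides (Psmb8, Psmb9). In bulk sums of this kind, a change in the cells that carry a transcript and a change in each cell cannot be told apart.

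Cd74, the invariant chain of MHC class II, was nearly absent from Ctrl cells at 0, 0.14 and 0.27 UMIs per 10000 in replicates 1 to 3. It stood at 7.71, 3.64 and 11.3 in IFNg + IL10 cells, with no overlap. The edgeR log2 fold change was 6.12 ± 0.76 (SE, adjusted p 0.00108).

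The class II α chain gene H2-Aa had no UMI among 522433 in Ctrl and 236 UMIs among 1456717 in IFNg + IL10 cells, in which it stood at 2.21, 0.69 and 3.88 per 10000. Against a floor of 3 UMIs over the Ctrl group, this was at least 28.2-fold higher (edgeR adjusted p 0.00108). H2-Ab1, the β chain gene, had 2 UMIs in Ctrl and 264 in IFNg + IL10, a ratio of 47.3 with a counting interval of 13.0 to 393 (edgeR adjusted p 0.0240).

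B2m, the light chain of MHC class I, had levels of 2.90, 2.73 and 1.86 in Ctrl and 22, 4.48 and 27.3 in IFNg + IL10, a log2 fold change of 2.65 ± 0.43 (edgeR adjusted p 0.00820). Replicate 2 was much the lowest of the treated replicates, yet above every Ctrl value. The heavy chain gene H2-D1 showed the same order, with 2.86, 4.77 and 4.79 in Ctrl and 22.2, 8.06 and 29.5 in IFNg + IL10 (log2 fold change 2.21 ± 0.36, adjusted p 0.00820). H2-K1 changed by 1.93 ± 0.38 (adjusted p 0.0476), and reads of these closely related heavy chain genes may have been shared between them. Psmb9 changed by 2.13 ± 0.35 (adjusted p 0.00820) and Psmb8 by 2.39 ± 0.48 (adjusted p 0.0485).

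As groups, 5 of the 11 tested MHC class I pathway genes rose, all 11 had positive fold changes and their median log2 fold change was 1.18, against 0.00 for all genes tested. Of these, 7 had replicates that did not overlap, higher in IFNg + IL10, beside 3.94% of all genes. Psmb10 and Psme1, which did not pass, had log2 fold changes of 1.18 and 0.92. Of 9 class II genes 3 had enough counts to be tested, mainly through the IFNg + IL10 group itself, so their number is not read as a result about the list. The gene that fell, 3110004A20Rik, rested on 54 UMIs in Ctrl and 6 in IFNg + IL10, and had 0 in Treg and in Treg + aIL10R, 1 in Treg + aIFNg + aIL10R and 20 in Treg + aIFNg. Leaving out replicate 1 moved the log2 fold change of H2-K1 to 1.21, of H2-Ab1 from 5.4 to 4.3 and of Cd74 to 5.07, leaving out replicate 2 moved H2-K1 to 2.91, B2m to 3.27 and Cd74 to 6.97, and leaving out replicate 3 moved H2-Ab1 to 6.05. Leaving out replicate 1 reduced the 9 genes to 1, and leaving out cells of high Scrublet score, 48 of 199 enteroendocrine (24.1%) and 318 of 11712 other cells (2.72%), reduced them to 3, and the fold changes of all 9 kept their direction in every alternative fitted.

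**Figure D3:**
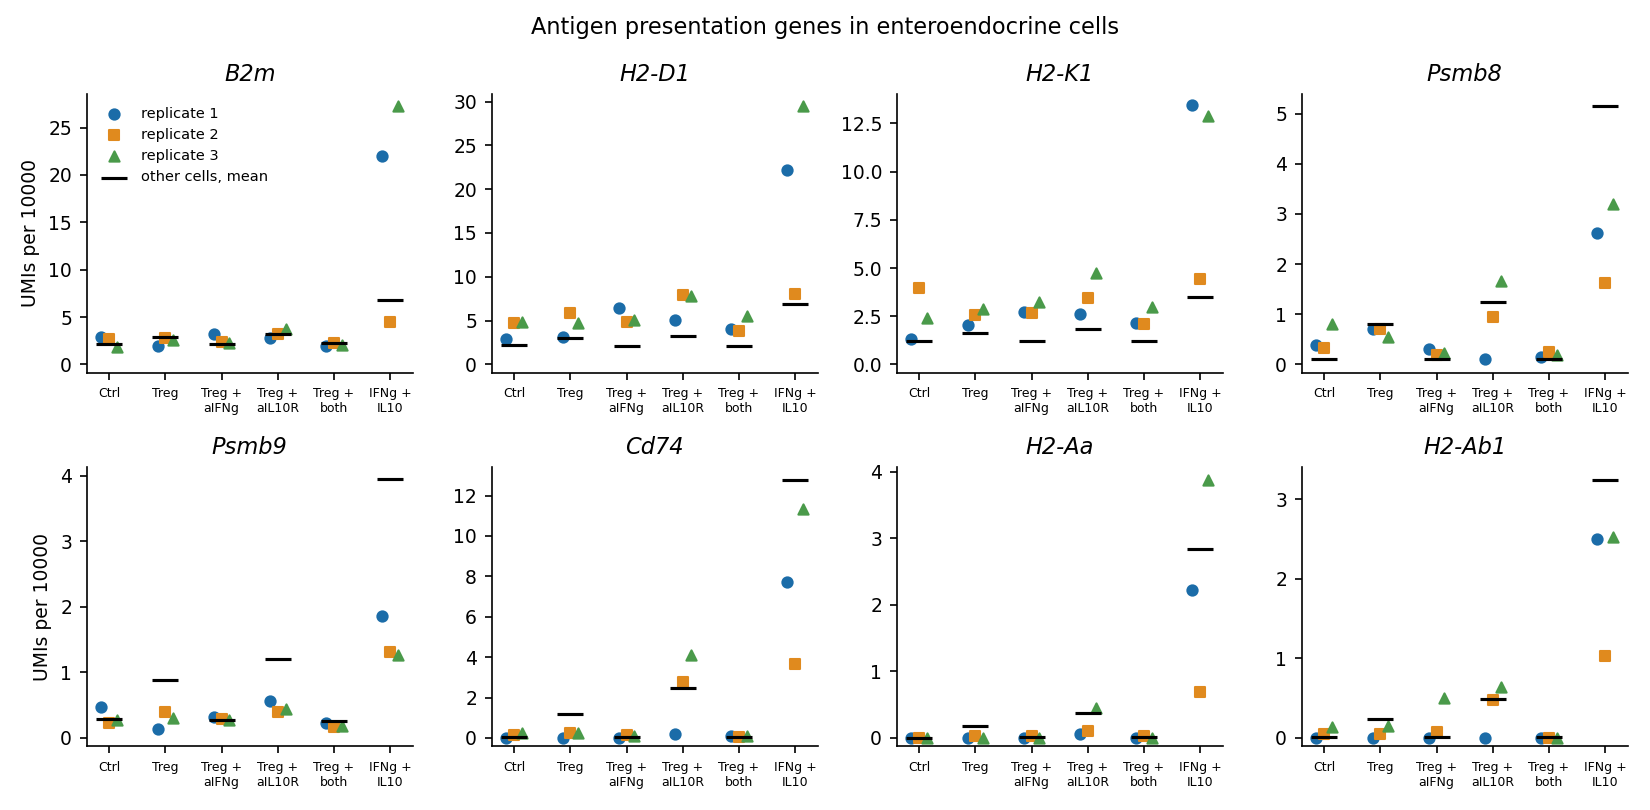
Levels in UMIs per 10000 of the genes of MHC class I and II presentation that rose in enteroendocrine cells of the IFNg + IL10 group, 1 point per replicate in all 6 groups, with the mean of the other cells as a dash. Cd74 reaches 3.64 to 11.3 in IFNg + IL10, at most 0.27 in Ctrl, and 0.21, 2.79 and 4.09 in Treg + aIL10R.

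Other gene groups did not pass the test in this comparison. None of the 8 tested hormones did: Ghrl had a log2 fold change of 2.28 ± 1.28 and Gip of −0.91 ± 1.55 (edgeR adjusted p 1.00 for both). All 8 tested serotonin genes had negative fold changes, with a median of −0.70, and none passed, while 2 had replicates that did not overlap, lower in IFNg + IL10. The 19 tested lineage transcription factors and 17 granule genes gave 0 called genes, with medians of 0.26 and −0.27. Replicates did not overlap for 2 transcription factors on the higher and 2 on the lower side, and for 1 granule gene on the higher and 4 on the lower, beside 3.94% and 4.06% of all genes. Among the interferon response genes only 3 of 38 had enough counts, and none of them passed. Immediate early genes had negative fold changes in 7 of 7 tested, with a median of −1.76, and 5 of them had replicates that did not overlap, lower in IFNg + IL10, beside 4.06% of all genes. Their summed level was 20.6, 24.1 and 21.8 per 10000 in Ctrl and 9.26, 11.6 and 11.3 in IFNg + IL10. Fos had a log2 fold change of −1.76 ± 0.43 (adjusted p 0.288) and of −1.70 in the other cells. These genes also respond to tissue dissociation, and the part of handling in them was not tested.

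In the Treg groups no gene passed. Against Ctrl the edgeR test called 0 of 5028 genes for Treg, Treg + aIFNg, Treg + aIL10R and Treg + aIFNg + aIL10R, with 224, 176, 276 and 189 genes at an unadjusted p under 0.05, and DESeq2 called 3, 1, 2 and 0. Among cells with at least 50% of hashtag UMIs from their own hashtag, a setting added after the data were seen, edgeR called 3, 4, 11 and 1. Against Treg alone, the 3 antibody groups gave 0 as well, with 197, 252 and 199 genes at an unadjusted p under 0.05 and 0 by DESeq2 in each. Cd74 came closest: it stood at 0.21, 2.79 and 4.09 per 10000 in Treg + aIL10R, far above Ctrl in 2 of 3 replicates and in replicate 1 within the Ctrl range (log2 fold change 4.20 ± 0.83, edgeR adjusted p 0.156). In the Treg group it was 0, 0.22 and 0.23, within the Ctrl range. The summed MHC class I level was 16.2 ± 2.8 (SD, n = 3) in Ctrl, 16.6 ± 2.9 in Treg, 16.5 ± 1.4 in Treg + aIFNg, 22.6 ± 4.5 in Treg + aIL10R, 14.7 ± 2.1 in Treg + aIFNg + aIL10R and 64.1 ± 31.2 in IFNg + IL10.

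The other cells of the same cultures had higher antigen presentation levels in Treg than in Ctrl. Their summed MHC class I level was 10.2 ± 0.6 in Ctrl and 17 ± 3.2 in Treg, and their class II level was 0.30 ± 0.01 in Ctrl and 0.60, 5.19 and 1.36 in the 3 Treg replicates. Enteroendocrine cells had class II levels of 0.07, 0.40 and 0.47 in Treg and 0.13, 0.42 and 0.53 in Ctrl. A limit was set at the 95th percentile of Ctrl cells of the same class, which for enteroendocrine cells were 24. In Treg, 0 of 33 enteroendocrine cells were above it (counting error alone allows up to 9.09%), against 17.3, 69.9 and 35.1% of other cells. The difference had the same direction in 3 of 3 replicates (exact sign-flip p 0.25, the smallest possible).

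Restricting both classes to cells whose assigned hashtag held at least 50% of hashtag UMIs left 0 of 25 enteroendocrine cells and 894 of 1913 other cells (46.7%) above the limit. With all cells thinned to 10000 UMIs and 1 common limit of more than 1 UMI, the shares were 6.06% and 37.6%, though this limit lies near a single UMI. For MHC class I under the same thinning, 1 of 33 enteroendocrine cells and 12.5% of the other cells of the Treg group passed the common limit, but in Treg + aIL10R the order turned, with 25% and 18.7%. In Ctrl, 8.33% of enteroendocrine and 0.286% of other cells passed that limit, so enteroendocrine cells stood higher there too.

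**Figure D4:**
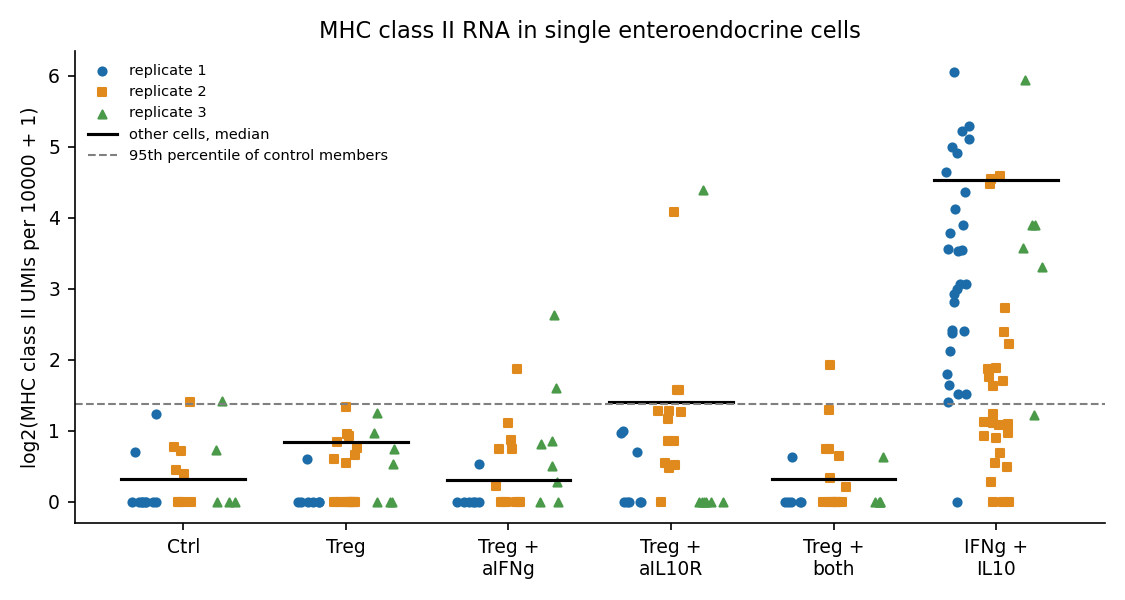
Summed MHC class II level of each enteroendocrine cell, as log2 of UMIs per 10000 plus 1, by group and replicate, with the median of the other cells as a solid line and the 95th percentile of Ctrl enteroendocrine cells as a dashed line. In Treg no enteroendocrine cell is above the dashed line, and in IFNg + IL10 the shares above it are 96.6, 42.3 and 83.3%.

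In the IFNg + IL10 group, 45 of 61 enteroendocrine cells were above their MHC class I limit, 44 above the class II limit and 25 above that of the interferon response list. For MHC class II the shares were 96.6, 42.3 and 83.3% in replicates 1 to 3, and at most 25% in any replicate of another group (exact permutation over 6 groups within replicates p = 0.00648, adjusted p 0.0194 over 3 scores). For MHC class I they were 96.6, 42.3 and 100% (adjusted p 0.0271 by the same exact test), and for the interferon response list 69.0, 11.5 and 33.3% (adjusted p 0.0344). With a replicate left out, the exact test gave unadjusted p of 0.0389 to 0.167 for class II and 0.108 to 0.167 for class I. For the interferon response list it gave 0.167 to 0.2. The MHC scores were added after the data had been seen. By leading hormone, 12 of 14 Ghrl-led, 6 of 7 Sct-led, 7 of 10 Cck-led, 4 of 6 Gip-led and 7 of 11 Tac1-led cells, the single Gcg-led and Sst-led cells and 6 of 11 cells without a leading hormone were above the class II limit. Replicate 2 was low in both of its libraries, with 6 of 12 and 5 of 14 cells above. Its 15 cells below the limit had a median of 96 UMIs of the assigned hashtag, making up 75.0% of their hashtag UMIs, against 386 UMIs and 88.8% in the 11 cells above. Whether some of those cells came from another group was not tested.

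Single interferon genes, named here after their values were seen, are set side by side for enteroendocrine and other cells of the IFNg + IL10 group, with no test. Of the 9 class II genes, 7 were lower in enteroendocrine cells in all 3 replicates, among them H2-Eb1 (mean level 0.903 against 2.58) and Cd74 (7.56 against 12.8). Irf8, an interferon-induced transcription factor, was at 0.416, 0.397 and 0.194 against 4.23, 1.86 and 2.26. Of 37 genes of the interferon response list, 9 were lower in enteroendocrine cells in all 3 replicates. Among these, Gbp2, Gbp5, Cxcl9 and Cxcl10 had no UMI in enteroendocrine cells. Stat3, Irf7, Gbp8 and Usp18 were higher there in all 3 replicates. Ifit3 was higher in replicate 1 only, on 1 UMI. Irf7 was among the higher, at 0.178, 0.206 and 0.291 against 0.0415, 0.0349 and 0.0367. Gbp2 and the chemokines Cxcl9 and Cxcl10 had no UMI in the 61 enteroendocrine cells, a count that allows up to 0.0206 per 10000, and mean levels of 0.0719, 0.0700 and 0.0670 in the other cells. The receptor chains Ifngr1 and Ifngr2 averaged 0.525 and 0.296 per 10000 over all enteroendocrine cells, against 1.02 and 0.687, while Il10rb averaged 0.383 against 0.265 and Il10ra was not detected. In the whole list of 14 genes of cytokine receptors and their kinases, 10 were higher in enteroendocrine cells, and the summed level was 5.28 against 3.90.

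Irf1 and Psmb8 were among the genes whose change with treatment differed between the cell classes. Over 14683 genes, the edgeR interaction of cell class and treatment called 26 genes for IFNg + IL10, of which 7 had a more positive (0.0477%) and 19 a more negative change (0.129%) in enteroendocrine cells. It called 7 for Treg + aIL10R (1 more positive, 0.00681%, and 6 more negative, 0.0409%), 1 for Treg, 1 for Treg + aIFNg + aIL10R (0.00681% each, more negative) and 0 for Treg + aIFNg (463 genes at an unadjusted p under 0.05 in edgeR, DESeq2 not run). These counts were unstable: with a replicate left out they were 55 to 110 for IFNg + IL10, 35 to 65 for Treg + aIL10R, 8 to 49 for Treg, 10 to 29 for Treg + aIFNg and 8 to 15 for Treg + aIFNg + aIL10R.

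Irf1, the transcription factor that relays IFNγ signals, stood at 0.52, 0.88 and 0.66 per 10000 in Ctrl enteroendocrine cells and at 1.53, 0.60 and 1.36 in those of IFNg + IL10, so that replicate 2 lay within the Ctrl range. In the other cells it went from 0.094, 0.062 and 0.072 to 2.09, 1.17 and 1.5. The difference between the log2 fold changes was −3.72 ± 0.49 (edgeR adjusted p 1.2e-05). For Treg it was −3.72 ± 0.55 (adjusted p 0.000226) and for Treg + aIL10R −3.12 ± 0.52 (adjusted p 0.00138). These values rest on few UMIs of Irf1 in enteroendocrine cells, 36 in Ctrl, 29 in Treg and 40 in Treg + aIL10R. Its levels there were 0.28, 0.63 and 0 in Treg and 0.83, 0.58 and 0.51 in Treg + aIL10R. Of 6 alternatives to each fit, the call held in 4 for Treg (edgeR adjusted p up to 0.112). It held in 3 for Treg + aIL10R (up to 0.263). Irf1 was thus higher in enteroendocrine than in other cells in 3 of 3 Ctrl replicates, and lower in 3 of 3 IFNg + IL10 replicates.

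Psmb8, an immunoproteasome subunit, went from 0.39, 0.32 and 0.80 to 2.62, 1.63 and 3.20 in enteroendocrine cells and from 0.10, 0.067 and 0.17 to 4.99, 3.32 and 7.14 in the others. The difference of log2 fold changes was −3.11 ± 0.48 (edgeR adjusted p 0.000127). When the other cells were drawn down to the same number as the enteroendocrine cells, Irf1 and Psmb8 were the 2 genes still called for IFNg + IL10 (edgeR adjusted p 0.0365 for both), and 0 were called for Treg. B2m, H2-D1 and H2-K1 gave no called difference, with values of 0.88, 0.47 and 0.42. The Paneth cell genes Lyz1 (−3.21 ± 0.49, adjusted p 0.000127) and Mmp7 (−3.81 ± 0.68, adjusted p 0.00144) were also called, but not with drawn cells. The other cells include Paneth cells, and the mix of the other cells was not held fixed.

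**Figure D5:**
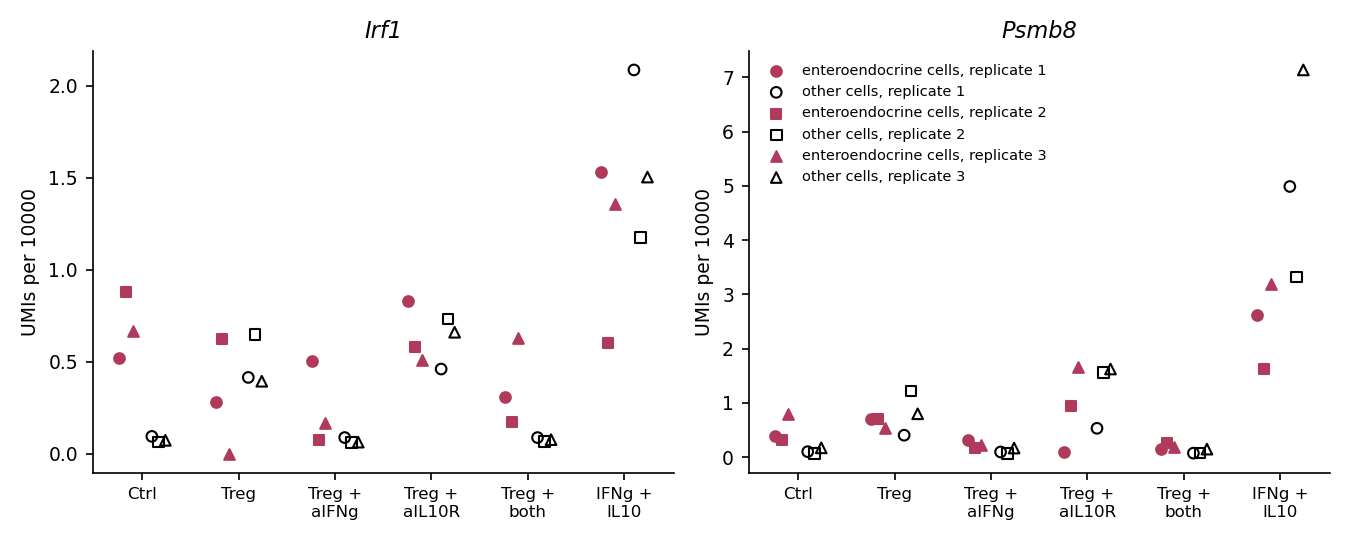
Levels of Irf1 and Psmb8 in UMIs per 10000 (linear axis) in enteroendocrine (filled) and other cells (open), 1 point per replicate in each group. In Ctrl the enteroendocrine points lie above those of the other cells for both genes, and in IFNg + IL10 Psmb8 is lower in enteroendocrine cells.

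Sequences upstream of the called genes are shown for those with a letter match to an interferon motif. Of 10 genes, 8 were searched, with 10 promoters of the RefSeq promoter table (GRCm38.p6). Cd74 was left out of the search, and H2-Ab1 matched no entry. The 250 bases before each start were searched on both strands for the γ-activated sequence TTCNNNGAA and the interferon-stimulated response element (GAAA, any 2 bases, GAAA). The first is in 7.02% and the second in 2.98% of all 32851 promoters of this length. Irf1 and Psmb8 held TTCNNNGAA and B2m held the response element, shown in capitals. They lie at chr11:53769764-53770013 (Irf1), chr17:34197945-34198194 (Psmb8) and chr2:122147437-122147686 (B2m), all on the plus strand, with the matches beginning 90, 97 and 139 bases before the start. A match is a description of letters, not of binding.
Irf1: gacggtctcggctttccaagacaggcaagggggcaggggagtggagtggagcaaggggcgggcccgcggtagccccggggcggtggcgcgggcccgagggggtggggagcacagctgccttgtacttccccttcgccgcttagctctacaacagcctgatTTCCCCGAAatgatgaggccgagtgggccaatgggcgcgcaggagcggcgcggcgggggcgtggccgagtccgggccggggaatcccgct
Psmb8: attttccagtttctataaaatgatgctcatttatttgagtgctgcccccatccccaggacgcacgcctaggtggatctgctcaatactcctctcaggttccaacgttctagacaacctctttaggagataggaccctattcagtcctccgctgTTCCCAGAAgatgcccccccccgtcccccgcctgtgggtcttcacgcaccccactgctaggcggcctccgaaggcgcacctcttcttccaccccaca
B2m: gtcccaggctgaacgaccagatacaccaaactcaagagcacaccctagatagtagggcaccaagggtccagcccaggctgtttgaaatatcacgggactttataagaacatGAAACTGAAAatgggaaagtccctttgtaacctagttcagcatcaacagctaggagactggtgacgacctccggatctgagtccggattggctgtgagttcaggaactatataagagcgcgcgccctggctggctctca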

How the data were processed

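Organoid cells had been captured with Chromium 3' v3.1 chemistry and TotalSeq hashtags. According to the submitters' processing notes, Cell Ranger 7.0.0 and Seurat 4.0.5 were used with mm10/GRCm38. The deposited matrices hold raw UMI counts per barcode for genes and hashtags, made by the authors without normalization. The sixth library, which the study had excluded, was left out. HTODemux (Seurat 5.3.0, quantile 0.99) was run per library on centred log-ratio hashtag values; a singlet was retained if its UMIs lay between 10000 and 90000, its genes between 3000 and 10000 and its mitochondrial share did not exceed 8.5%, and hashtag doublets were dropped. The study's own cell annotation was not used here. Of these cells, Scrublet (scanpy 1.11.5) would have removed 48 of the 199 enteroendocrine and 318 of the 11712 other cells, which was tried as an alternative. The members and gene lists were chosen with earlier results of these data known.

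Counts were summed per group and replicate (18 sums of 5 to 29 cells and 75205 to 680739 UMIs) and fitted together with edgeR 4.0.16 (quasi-likelihood test, replicate as a block, R 4.3.3); DESeq2 1.42.0 was an alternative. Adjusted p is Benjamini-Hochberg over all genes tested. The interaction was fitted on sums of enteroendocrine and other cells with a block for each group and replicate. Same-numbered samples came from the same pooled cultures and libraries; their deviations from the group means over 5028 genes correlated at a mean of 0.108 (−0.0962 to 0.315), against −0.0529 for different numbers. Whether replicates are separate mice is not given in the sources used here, so p-values measure the spread between these cultures. Levels are UMIs per 10000 gene UMIs; 3' counts need no length scaling. Named genes were all hormones, up to 10 called genes each way with the same sign in every replicate, up to 4 genes of each list by p, and the 25 genes of highest ratio to other cells among those with a mean of at least 1 per 10000; others are said to be chosen after their values were seen. Lists covered hormones, serotonin, lineage factors, granules, nutrient sensors, interferon response, MHC class I and II, cytokine receptors, mTORC1, MYC, cell cycle, immediate early genes and markers of other cell types. The edgeR step was tested on simulated data. Intervals and floors cover counting error only. All tests were two-sided. Alternatives were other limits for members, UMIs, genes, hormones and scores, another HTODemux quantile, size factors, filters, the block, DESeq2, drawn cells, thinning and leaving out each replicate. A restriction to cells with at least 50% of hashtag UMIs from their own hashtag was added after seeing the data.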

Additional observations from a re-analysis of the deposited data

Results flagged for a closer look

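The change with treatment differed between enteroendocrine and other cells, by the edgeR interaction test, for 26 genes in IFNg + IL10 against Ctrl, 7 in Treg + aIL10R, 1 in Treg and 1 in Treg + aIFNg + aIL10R. The interaction log2 value of Irf1 was −3.72 for Treg, −3.12 for Treg + aIL10R and −3.72 for IFNg + IL10. That of Psmb8 was −2.73 for Treg + aIL10R and −3.11 for IFNg + IL10. Of 6 alternatives to each fit, the Irf1 call held in 4 for Treg and in 3 for Treg + aIL10R. The Psmb8 call held in 4 for Treg + aIL10R (edgeR adjusted p up to 0.848) and in 5 for IFNg + IL10 (up to 0.387). The single gene of Treg + aIFNg + aIL10R was Clps, a pancreatic colipase gene, with −2.73 ± 0.50 (edgeR adjusted p 0.0233). In Treg + aIL10R the 7 genes were Vim, Irf1, Cacna2d1, Psmb8, Afp, Chgb and Reg1; Chgb was used to choose the cells and its value is not read. Sct was among the genes called for IFNg + IL10, at −2.45 ± 0.53 (adjusted p 0.0225): its log2 fold change was −0.23 in enteroendocrine cells and 2.40 in the other cells, where its level stayed under 0.367 per 10000.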

How the results depend on the processing

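Enteroendocrine cells are few and the counts of called genes moved with most settings. The p of the group shares was 0.0229 without high Scrublet scores and 0.0434 with no replicate block, 0.14 with an HTODemux quantile of 0.95, 0.184 with a membership limit of 20, and 0.154 to 0.544 with a replicate left out. With hormones called at 5 per 10000, Pyy-positive cells were 18.1% and Sct-positive cells 61.3%; at 20 they were 8.54% and 35.2%, with Gcg at 7.04%; Pyy was 15.4% with a membership limit of 20. Genes changed against Ctrl with no filter on low counts numbered 58 (Treg), 39 (Treg + aIFNg), 100 (Treg + aIL10R), 29 (Treg + aIFNg + aIL10R) and 106 (IFNg + IL10), and 56, 55 and 53 against Treg. With at least 50% of hashtag UMIs from the own hashtag they numbered 3, 4, 11 and 1 in the 4 Treg groups, and 4 (Treg + aIFNg) and 9 (Treg + aIL10R) against Treg. DESeq2 gave 3, 1 and 2 for Treg, Treg + aIFNg and Treg + aIL10R. Without high Scrublet scores the counts were 1 (Treg + aIL10R) and 3 (IFNg + IL10), and 3 for IFNg + IL10 with a membership limit of 20. Leaving out each replicate gave 1 to 8 for IFNg + IL10, 0 to 1 for Treg, Treg + aIFNg and Treg + aIFNg + aIL10R, 0 to 11 for Treg + aIL10R, and 0 to 2 and 0 to 4 for Treg + aIFNg and Treg + aIL10R against Treg.

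Interaction counts for IFNg + IL10, Treg + aIL10R, Treg, Treg + aIFNg and Treg + aIFNg + aIL10R were 106, 54, 23, 10 and 10 with no filter. With other cells drawn to the number of enteroendocrine cells they were 2, 1, 0, 0 and 0, and with no replicate block 1, 0, 0, 0 and 0. Leaving out replicates gave 55 to 110, 35 to 65, 8 to 49, 10 to 29 and 8 to 15. For the scores, the p of the interferon response share was 0.0556 with a limit at percentile 90 and 0.167 to 0.2 without a replicate, where MHC class I gave 0.108 to 0.167 and class II 0.0389 to 0.167. None of the results named in these paragraphs changed its direction. The MHC class I order in Treg + aIL10R did: the mean share above the limit was 14.7% of enteroendocrine and 65.5% of other cells with a limit for each class, and 23.9% and 18.7% with thinned cells and a common limit. Under that common limit the means in Ctrl were 7.41% and 0.293%. The cause of these moves was not tested. Of the 9 called genes, Cd74 stayed past the threshold in 11 of 12 alternatives (log2 fold change 5.07 to 7.28, adjusted p up to 0.122), H2-K1 and Psmb8 in 4 of 12. A minimum of 10 cells per sum could not be fitted, as 7 sums and no residual degrees of freedom were left, and with the own-hashtag restriction the score shares could not be computed, as 1 Ctrl replicate had no such cell.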
